A study of Mus musculus with 2 samples.

Results

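Mir298, Mir296, Mir335, Mir483 and Mir675 are miRNA genes of imprinted loci outside the large clusters of chromosome 12 and of Sfmbt2. They were chosen by locus, as the miRNA genes of the Nespas-Gnas, Mest, Igf2 and H19 loci, and make up 5 of the 2202 miRNA genes in the tables. Hippocampus was taken at the age of 14 days from males of B6CASTF1/J, the first-generation offspring of C57BL/6J and CAST/EiJ. They formed 1 group with 2 biological replicates, and each label names 3 males by number without saying how their tissue was combined. One donor identifier stands in both labels. Technical and biological spread between the libraries could not be told apart. Total RNA was the starting material for the miRNA libraries, and no treatment, genotype or second condition was included.

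An imprinted gene is transcribed mainly from the chromosome of 1 parent. In mouse, Nespas, the antisense transcript of the Gnas locus, Mest, which codes for a hydrolase-like protein, and Igf2, which codes for a fetal growth factor, are known as paternally expressed. H19, a non-coding RNA next to Igf2, is known as maternally expressed, and both are strongly active in the embryo and fall after birth in most tissues. In the brain, Igf2 is known to stay active in choroid plexus and meninges, and paternal expression is not assumed for it there. A miRNA is cut from a hairpin precursor into a 5p and a 3p arm, and bases 2 to 8 of an arm, the seed, are the main part that pairs with target mRNAs. The counts were not split by allele, so the parental origin of the reads was not measured.

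The mature sequences are shown because they are the annotated products of the hairpins. The tables count reads per hairpin and do not show which sequences made up the counts. The sequences come from RefSeq (GRCm38.p6, the assembly called mm10), where all 5 genes were matched, and the seed is in capitals.
miR-298-5p: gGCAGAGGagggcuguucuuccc
miR-298-3p: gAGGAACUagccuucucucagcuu
miR-296-5p: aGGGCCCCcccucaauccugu
miR-296-3p: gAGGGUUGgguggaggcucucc
miR-335-5p: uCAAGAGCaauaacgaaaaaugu
miR-335-3p: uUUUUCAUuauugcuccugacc
miR-483-5p: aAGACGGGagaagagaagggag
miR-483-3p: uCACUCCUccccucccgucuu
miR-675-5p: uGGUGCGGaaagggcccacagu
miR-675-3p: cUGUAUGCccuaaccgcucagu

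The 10 arms had 10 different seeds, and none of these seeds occurred in another gene's miRNA among the 1738 mature miRNAs of the table. No stretch of 20 nucleotides in the 5 hairpins was shared, in either orientation, with another of the 2202 annotated hairpins. In 141767 annotated transcripts, the exact mature sequences were found in no other gene, except that those of miR-675 lie in H19 itself. Copies elsewhere in the genome were not searched. The arms differed in base composition. G and C made up 30.4% of miR-335-5p and 68.2% of miR-296-3p.

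The hairpins of Mir298 and Mir296 are shown in full, with both arms in capitals, because these neighbours behaved differently in the libraries.
Mir298: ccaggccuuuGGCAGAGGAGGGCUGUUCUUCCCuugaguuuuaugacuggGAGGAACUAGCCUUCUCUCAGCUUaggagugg
Mir296: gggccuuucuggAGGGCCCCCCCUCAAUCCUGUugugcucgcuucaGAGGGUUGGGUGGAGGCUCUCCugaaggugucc

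Mir298 (ENSMUSG00000065410.1, 82 bases) lies on the minus strand of mm10 at chr2:174267504-174267585. Mir296 (ENSMUSG00000065521.1, 79 bases) lies on the same strand at chr2:174267047-174267125, and 378 bases separate the 2 hairpins. No annotated gene of GENCODE M21 overlaps either of them. The annotated Nespas gene, at 174281237 to 174295436 on the same strand, lies upstream of both, and its annotated 3′ end is 13.7 kb from Mir298 and 14.1 kb from Mir296. Mir335 (ENSMUSG00000065501.1, 98 bases) lies on the plus strand at chr6:30741299-30741396 and is intronic in all 7 Mest transcripts that span it. Mir483 (ENSMUSG00000070140.1, 73 bases) lies on the minus strand at chr7:142654924-142654996, in an intron of all 7 spanning Igf2 transcripts and of 1 transcript of Gm49394. Mir675 (ENSMUSG00000076275.1, 84 bases) lies on the minus strand at chr7:142577064-142577147, within an exon of 3 H19 transcripts and an intron of 1. Mir483 and Mir675 are 77.8 kb apart and are each other's nearest miRNA genes, while the nearest to Mir335 is Mir29a, 321 kb away on the opposite strand. No other miRNA gene lies within 10 kb of Mir335, Mir483 or Mir675.

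The hairpins were 73 to 98 bases long, the median of 1005 RefSeq mouse hairpins being 79 bases. The share of G and C was 63.3% in Mir296, 63.1% in Mir675, 58.9% in Mir483, 53.7% in Mir298 and 42.9% in Mir335, against a median of 51.7% over those hairpins. The predicted minimum free energy was lowest for Mir675, at -56.0 kcal/mol, lower than in 97.7% of the hairpins. Mir335 stood at -44.3, Mir296 at -43.2, Mir298 at -42.7 and Mir483 at -33.8 kcal/mol, against a median of -32.0. The most stable predicted hairpin of the 5 belonged to the gene with the fewest reads.

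Replicate 1 had 3793934 counts on miRNA genes and replicate 2 had 2554997, so that 1 count was worth 0.264 and 0.391 CPM (counts per 1000000 counts on miRNA genes). Of all reads, 26.3% in replicate 1 and 37.5% in replicate 2 mapped to several places and were given to no gene, and 41.3% and 20.7% were unmapped. Of 15 neuron markers, 11 were detected, and none was at 0 in both libraries. Mir124a-1, Mir124a-2, Mir124a-3 and Mir9-2 were not detected, with no more than 12 counts each in either library. Reads that such numbered gene copies share map to several places and were given to no gene. Their low counts thus do not show a low level of the miRNA. The 15 markers had sums of 32078 and 23154 CPM in replicates 1 and 2. The direction of these sums came from Mir132, without which the other 14 summed to 14811 and 17207 CPM in replicates 1 and 2. Intervals on levels and ratios are 95% intervals of counting error alone, because they were computed from read counts and hold no variation between animals. PCR copies of a molecule could not be told from separate molecules, so the intervals may be too narrow even for that.

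The first question was how strongly each locus was represented in the miRNA reads of young hippocampus. Transcription and processing at the loci were not measured, and differences in capture between sequences were not corrected. Mir298 and Mir296 of the Nespas-Gnas locus and Mir335 of Mest were abundant, Mir483 of Igf2 was moderate, and Mir675 of H19 was at the limit of the counts. At a minimum of 2 CPM in each library, 4 of the 5 genes were detected, while 19.3% of all annotated miRNA genes were. The median over the 5 genes of the mean log2(CPM + 0.5) was 10.53, and over all 2202 genes it was -1, the value of a gene with no count.

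Mir298, whose miRNA is known in mouse as a regulator of the amyloid-cleaving protease BACE1, had 60262 counts in replicate 1 and 8167 in replicate 2. Its level was 15884 CPM in replicate 1, with a Wilson interval of 15758 to 16010, and 3196 CPM in replicate 2, with one of 3128 to 3266. The gene was 15th by level in replicate 1 and 55th in replicate 2. Mir296, whose human counterpart is known for a role in endothelial cells during vessel growth, had 5840 and 8595 counts in replicates 1 and 2. Its level was 1539 CPM (1500.4 to 1579) in replicate 1 and 3364 CPM (3294 to 3436) in replicate 2, ranks 90 and 51. The libraries thus placed these neighbours in opposite order, with Mir298 well above Mir296 in replicate 1 and slightly below it in replicate 2.

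Mir335, known in human as a suppressor of metastasis in breast cancer cells, had 4904 counts in replicate 1 and 4315 in replicate 2. That was 1293 CPM (1257 to 1329) in replicate 1 and 1689 CPM (1639 to 1739.9) in replicate 2, and its ranks of 98 and 82 were the closest together of the 3 abundant genes. Mir483 had 755 and 331 counts, or 199 CPM (185 to 214) in replicate 1 and 129.6 CPM (116 to 144) in replicate 2, ranks 180 and 193. It stood above 56.6% of the 426 detected genes by mean level, whereas Mir298 stood above 94.4%, Mir296 above 84.7% and Mir335 above 79.1%.

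Mir675, which in mouse is released from H19 and is known to restrain placental growth, had 0 counts in replicate 1 and 1 count in replicate 2. By the limit of 3 counts, 0 counts allow a level of up to 0.791 CPM in replicate 1, and the upper end of the exact Poisson interval is 0.972 CPM. The single count of replicate 2 corresponds to 0.391 CPM, with an exact Poisson interval of 0.0099 to 2.18. The gene was below the detection minimum of 2 CPM in both libraries. Its mature sequences, shown above, have no copy in an annotated gene other than H19.

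**Figure D1:**
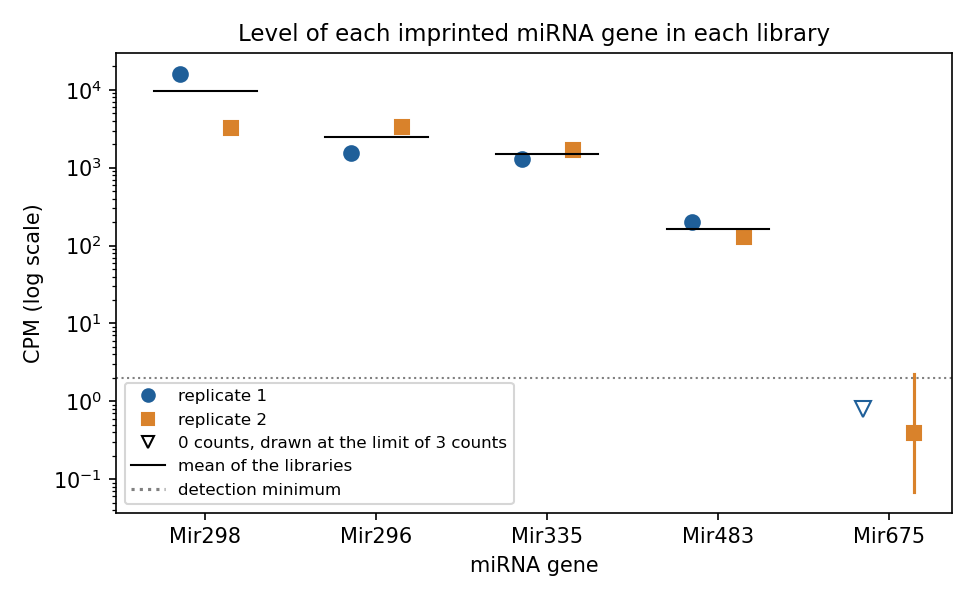
Level of each gene in CPM (log axis) in replicate 1 (circles) and replicate 2 (squares), with 95% Wilson intervals, which are hidden behind most symbols; short lines are the means of the libraries, the dotted line is the detection minimum of 2 CPM, and the open triangle is the limit of 0.791 CPM allowed by 0 counts. Mir298 and Mir296 overlap in range, and 4 genes lie far above the minimum while Mir675 lies below it.

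By mean level the order was Mir298 at 9540.1 ± 8971 CPM, Mir296 at 2452 ± 1290.3 CPM, Mir335 at 1491 ± 280.2 CPM, Mir483 at 164 ± 49.1 CPM and Mir675 at 0.196 ± 0.277 CPM (SD, n = 2 each). The ranges of Mir298 and Mir296 overlapped, and the libraries put these genes in opposite order. The ranges of Mir296 and Mir335 overlapped too, but Mir296 was the higher in each library. Mir335 was above Mir483 in both libraries, and Mir483 above Mir675, with no overlap. In replicate 2 alone, Mir296 came before Mir298.

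Together the 5 genes held 1.89% of the counts of replicate 1, with a Wilson interval of 1.88 to 1.91. They held 0.838% of those of replicate 2, with an interval of 0.827 to 0.849. The mean was 1.36% ± 0.745 (SD, n = 2). Most of the difference between the libraries lay in Mir298. Mir298 made up 84.0% of the counts on the 5 genes in replicate 1 and 38.1% in replicate 2. Without Mir298 the other 4 genes held 0.303% in replicate 1 and 0.518% in replicate 2, so that the direction turned. The Igf2-H19 domain held 0.0199% and 0.0130% in replicates 1 and 2, nearly all of it Mir483.

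**Figure D2:**
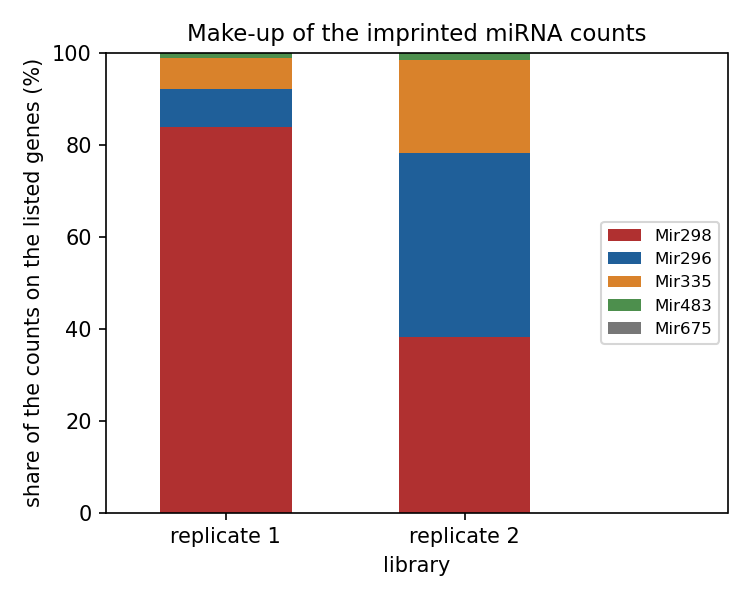
Share of each gene (% of the counts on the 5 genes) in replicate 1 and replicate 2. Mir298 takes 84.0% in replicate 1 and 38.1% in replicate 2, where Mir296 takes 40.1%; Mir675 is too small to be seen.

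The second question was how far the libraries differed at each gene. Mir298 and Mir483 were higher in replicate 1, and Mir296 and Mir335 were lower there. All 4 genes with enough counts differed in an exact binomial test, two-sided and conditional on the totals, after Benjamini-Hochberg adjustment over 507 genes. That test covers counting error only and compares these libraries, not conditions, and 52.1% of all tested genes passed it, 25.2% higher and 26.8% lower in replicate 1. With about as many genes passing in each direction, the sizes of the differences say more than the calls.

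Mir298 was 4.97-fold higher in replicate 1 than in replicate 2 (exact interval 4.86 to 5.09), a log2 ratio of 2.31. Of 328 genes that averaged at least 10 CPM, 6 had a larger ratio in that direction. Of the 111 genes that averaged at least 1000 CPM, none was further apart in either direction, and their median was 1.28-fold. The next gene of that class was Mir219a-2, an oligodendrocyte marker, at 2.02 on the log2 scale. Mir296 stood at 0.458 times its replicate 2 level in replicate 1 (0.443 to 0.473), or 2.19-fold lower, and among the 111 genes only Mir99b was lower in proportion. The adjusted p of Mir298 and of Mir296 in the exact binomial test was too small to be represented and was stored as 0.

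Mir335 was at 0.765 of its replicate 2 level in replicate 1 (0.735 to 0.798, adjusted p = 1.71e-36 in the exact binomial test). Mir483 was 1.54-fold higher in replicate 1 (1.35 to 1.75, adjusted p = 1.05e-10 in the exact binomial test). Among the 328 genes the median distance between the libraries was 0.42 on the log2 scale, so that Mir335, at -0.39, lay inside it and Mir483, at 0.62, lay outside it. When the spread between the libraries, a coefficient of variation of 0.377 from edgeR's common dispersion, entered a negative binomial exact test, 0 of the 4 genes passed and 0.394% of all 507 did. That spread was estimated from the same 2 libraries that the test compares, so few calls were possible, and the lack of a call does not show that a gene was at the same level in both. The unadjusted p of that edgeR test was under 0.05 for 1 of the 4, Mir298, at 0.00464 (adjusted p = 0.408).

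**Figure D3:**
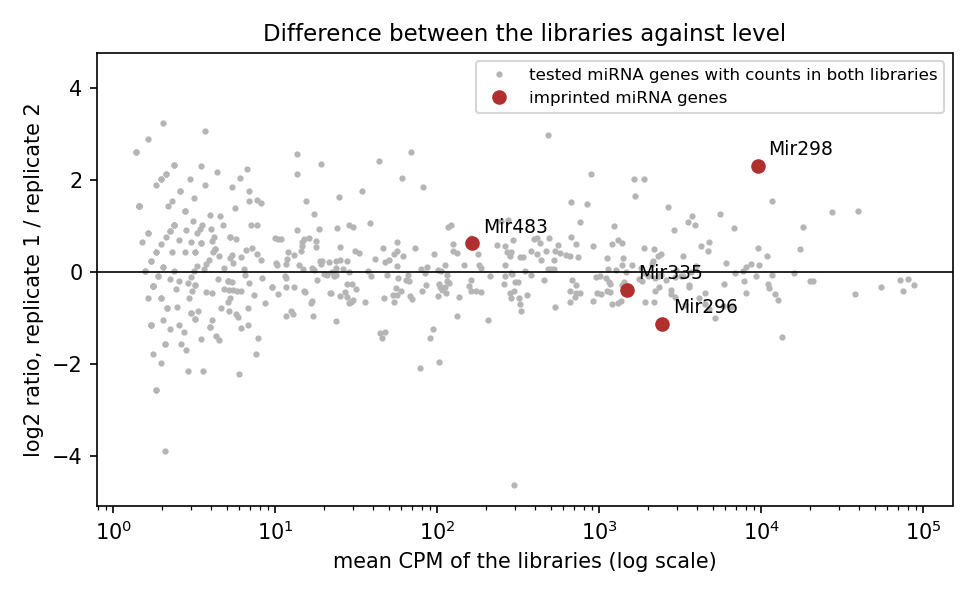
Log2 ratio of replicate 1 to replicate 2 against mean CPM (log axis) for the tested miRNA genes with counts in both libraries (grey), with the imprinted genes in red. Mir298, at 2.31, is further from 0 than any other gene of at least 1000 CPM, while Mir335 and Mir483 lie among the other genes.

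The third question was whether genes of 1 locus kept their proportion. Mir298 and Mir296 did not. Replicate 1 held 10.3 counts of Mir298 for each count of Mir296 (exact interval 10.05 to 10.6), and replicate 2 held 0.9502 (0.922 to 0.980). Which sequences of either hairpin the reads held was not examined. The proportion was 10.9-fold higher in replicate 1, a comparison within each library that does not depend on its total. Fisher's exact test of these counts gave a p that was stored as 0. Such differences are common at these depths, since 69.8% of 96 neighbouring pairs on the same strand, at most 10 kb apart, passed Fisher's exact test after adjustment over the pairs.

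The size stood out more than the call. Over the 82 pairs in which both genes averaged at least 10 CPM, the proportion moved by a median of 0.47 on the log2 scale, or 1.38-fold. Mir298 and Mir296 moved by 3.44, the largest value among those 82 pairs, followed by Mir34c and Mir34b at 2.82. The 54 such pairs within 1 kb, as Mir298 and Mir296 are, are part of the 82, so none of them could have moved more. Pairs of a cluster share genes, so they are not independent, and this comparison of pairs was chosen after the values of Mir298 and Mir296 were seen.

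**Figure D4:**
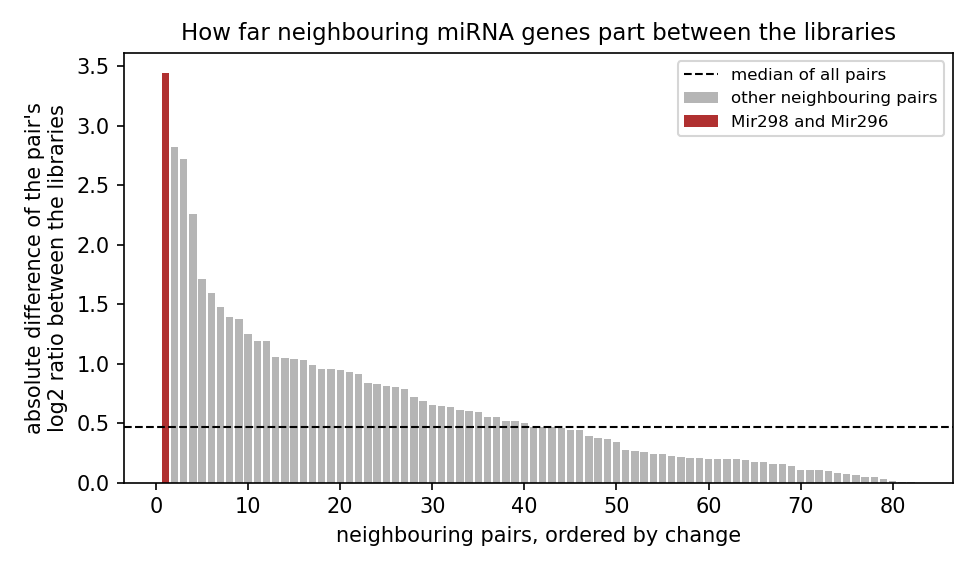
Absolute difference between the libraries in the log2 ratio of 2 neighbouring miRNA genes, for 82 pairs at most 10 kb apart on 1 strand, in falling order. Mir298 and Mir296 (red) come first at 3.44, and the dashed line is the median of 0.47.

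The move came from both genes, with Mir298 up and Mir296 down in replicate 1. Against Mir335 of chromosome 6, which has no part in the Gnas locus, Mir298 stood at 12.3-fold in replicate 1 and 1.89-fold in replicate 2. Mir296 stood at 1.19-fold of Mir335 in replicate 1 and 1.99-fold in replicate 2. Mir298 and Mir296 were thus both above Mir335 in each library, Mir298 by the wider margin in replicate 1 and Mir296 by a slightly wider one in replicate 2. Both genes of the Gnas locus had the same counts when strand was ignored, and all 5 genes had 0 counts on the opposite strand.

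At the Igf2-H19 domain Mir483 was above Mir675 in both libraries. In replicate 1, 755 counts of Mir483 against 0 of Mir675 gave a proportion with an exact lower limit of 204. In replicate 2 the proportion was 331, and its exact interval of 59.0 to 13113 is wide because it rests on 1 count. Fisher's exact test of this proportion between the libraries gave a two-sided p of 0.305. With 1 count of Mir675 in all, the test could not have passed and decides nothing.

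Marker genes of other cell types stood at different levels in the libraries too. The choroid plexus and ciliated epithelium list had 4 of 7 genes detected and summed to 1980.3 CPM in replicate 1 and 931 CPM in replicate 2, with Mir449b at 0 in both. The oligodendrocyte list had 3 of 3 detected, with 4060 and 1247 CPM in replicates 1 and 2. The endothelial marker Mir126a stood at 11308 and 7829 CPM, and the list of meningeal, fibroblast and mural genes, with 3 of 6 detected and Mir199a-1 at 0 in both, at 3122 and 3272 CPM. The erythroid list, with 3 of 3 detected, summed to 75.4 CPM in replicate 1 and 192 CPM in replicate 2. Members did not all follow their list. Of the erythroid genes Mir451a stood at 41.9 and 162 CPM in replicates 1 and 2 but Mir486 at 24.5 and 12.9 CPM. Of the mural and fibroblast list Mir143 stood at 2833 and 3069 CPM but Mir214 at 97.5 and 23.5 CPM. Among oligodendrocyte genes, Mir219a-2 stood at 3014 and 743 CPM and Mir338 at 1029 and 485 CPM, but Mir219a-1 at 16.9 and 19.2 CPM. Reads that gene copies share, as the Mir219a genes or the Mir199 genes may, were given to no gene where they mapped to several places. Low counts of such copies thus do not show a low level of their miRNA. In the choroid plexus and ciliated list Mir34c stood at 857 and 109 CPM, while Mir34b was nearly level at 14.8 and 13.3 CPM. The part of these cell types in the levels of Mir298, Mir296, Mir335 and Mir483 was not tested, and in tissue RNA more cells of a type cannot be told apart from more RNA per cell.

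Genes with the most similar pair of levels were found by distance in log2(CPM + 0.5) over the 2 libraries. Mir298 was nearest to Mir132, an activity-regulated miRNA gene of neurons, with 17266 and 5947 CPM in replicates 1 and 2, at a distance of 0.90. Mir296 was nearest to Mir337 of chromosome 12, with 1685 and 2650.5 CPM, at 0.37. Mir335 was nearest to Mir92-1 of chromosome 14, with 1336 and 1652 CPM, at 0.06, and Mir483 to Mir377 of chromosome 12, with 201 and 120.5 CPM, at 0.10. Mir298 and Mir296 had no gene as close to them as Mir335 and Mir483 had. With 2 libraries these distances describe level and ratio and no more.

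For scale, the larger imprinted clusters held larger numbers of detected genes, with differences between the libraries in both directions. Of 67 miRNA genes between Dlk1 and Dio3, 53 were detected and 44 of 53 tested differed between the libraries in the exact binomial test, 20 higher and 24 lower in replicate 1. Their highest gene was Mir127, at 80675 ± 6391 CPM (SD, n = 2). Of 119 genes inside Sfmbt2, 8 were detected, led by Mir467d at 1021 ± 235 CPM. Of the 8 tested, 7 differed, 4 higher and 3 lower in replicate 1. Reads mapping to several places were given to no gene, and how many Sfmbt2 genes lost reads in this way was not examined. The 8 detected genes may therefore undercount this cluster. Over all genes, 19.3% of those annotated were detected and 52.1% of those tested passed the exact binomial test, 25.2% higher and 26.8% lower, while the negative binomial test passed 2 of 507. The median log2 ratio of detected genes was -0.07 between Dlk1 and Dio3, 0.84 inside Sfmbt2 and 0.00 over all 426 detected genes. The 4 detected genes of the Gnas, Mest and Igf2 loci went both ways, at 2.31 for Mir298, 0.62 for Mir483, -0.39 for Mir335 and -1.13 for Mir296.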

How the data were processed

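The authors deposited unnormalised read counts for each annotated miRNA gene, 1 table per library, on mm10 with GENCODE M21, per the accompanying text. The aligner, the counter and any filters were not named in the sources used here. Of 3 count columns (strand ignored, strand of the gene, opposite strand), the second was identified by its larger total and used. The 4 rows of unassigned reads, 72.5% and 64.7% of the reads in replicates 1 and 2, stayed out of the totals. CPM, log2(CPM + 0.5) and all tests were computed from these counts, with a detection minimum of 2 CPM in each library and a test minimum of 10 counts in sum. Because edgeR's quasi-likelihood test cannot contrast single libraries, a two-sided exact binomial test was used at an adjusted p threshold of 0.05. Tools were R 4.3.3, edgeR 4.0.16, DESeq2 1.42.0, Python 3.11.15, scipy 1.17.1 and RNAfold 2.7.2. The named genes are the 5 members, the nearest gene by level of each with counts in both libraries, neighbours within 10 kb, hosts, and the top gene of each larger cluster. Mir219a-2, Mir99b, Mir34b, Mir34c, Mir29a and single marker genes were named after their values or positions were seen. Members and lists were chosen with earlier results of these data known.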

Additional observations from a re-analysis of the deposited data

How the results depend on the processing

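The 4 detected genes remained 4 at minimums of 1, 10 and 100 CPM, in the column that ignores strand and in either library alone. The count of 4 genes that differed held under other count minimums, with TMM factors, DESeq2 size factors and strand ignored, and became 0 in the negative binomial test with edgeR's common dispersion, which is estimated from the same libraries. The share of counts was 1.36%. It became 0.408% with all reads of the tables as denominator and 2.78% without the 10 most abundant genes in the denominator, as the denominators dictate, and 0.411% without Mir298, an alternative added after seeing the data. Leaving out replicate 1 gave 0.838%, and leaving out replicate 2 gave 1.89%. The log2 ratio of Mir298 to Mir296, 1.65 as the mean of the libraries, was -0.074 without replicate 1 and 3.37 without replicate 2, and the cause was not tested. That of Mir483 to Mir675, 7.91 on the log2(CPM + 0.5) scale, was 7.19 without replicate 1 and 8.64 without replicate 2. Mir675 stood at 0 and 0.391 CPM in replicates 1 and 2, below the added 0.5 in both. These values are therefore largely set by the 0.5, and without it the proportion in replicate 2 was 331. Within 50 kb no pair parted more than Mir298 and Mir296 (0 of 89 pairs, also added later). Most of these 89 were the 82 pairs within 10 kb. The 54 pairs within 1 kb, added later too, are part of those 82 and could give no other result. The log2 ratios between the libraries kept their sign for the 4 detected genes with TMM factors, DESeq2 size factors and all reads as denominator. Levels have no sign and a changed pseudocount cannot turn one, so those alternatives could not have shown a reversal. With all reads as denominator, the log2 ratio of Mir335 was -0.74 and that of Mir483 was 0.26. No paired analysis was possible because there is 1 group. With 2 libraries, no difference has a replicate check.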
